A study of Mus musculus with 4 samples.

Results

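Cyclic GMP is made by guanylate cyclases, and the genes described here encode its synthesis, its main receptors and effectors and one enzyme that breaks it down. The soluble cyclase is a heterodimer of an alpha and a beta subunit and is the intracellular receptor of nitric oxide. Natriuretic peptides act through membrane receptors that are themselves cyclases, and cGMP in turn activates cGMP-dependent protein kinases. In the ovary the pathway is best known from later follicles, where C-type natriuretic peptide from granulosa cells acts on its receptor Npr2 and the resulting cGMP holds oocytes in meiotic arrest.

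The 10 genes were taken by name from the 34682 rows of the count table. They are the soluble cyclase subunits Gucy1a3, Gucy1a2 and Gucy1b3, the natriuretic peptide receptors Npr1, Npr2 and Npr3, the ligand Nppc, the kinases Prkg1 and Prkg2, and the phosphodiesterase Pde5a. The set was chosen by role and with the fold changes between mutant and wild-type ovaries in view, Gucy1a3 being among the lower genes of that contrast. Their levels and changes are therefore given as a description, and calls made for them in the fit over all genes are counted without being read as support.

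RNA-seq was performed on developing mouse ovaries at E13.5, a stage given as days of embryonic development. Of the 4 libraries, 2 came from mutants that overexpress Sall1 and 2 from wild-type embryos. The mutants carry a BAC, a large genomic insert cloned in bacteria, in which the regulatory elements and promoter of Wt1 drive the Sall1 coding sequence in gonadal somatic cells. Female embryonic stem cells received it with the PiggyBac transposon, and the animals were derived from these cells by aggregating them with morulae. How many stem cell clones stand behind the libraries, and whether ovaries were pooled, is not given in the sources used here. The methods name CD1 as the strain of the wild-type gonads used for RNA-seq, while the wild-type count columns carry the name B6. The mutant columns give no strain name. For stem cells of transgenic experiments in general the methods name C57BL/6J or a hybrid with 129. The female line that received the BAC is described as derived from C57BL/6J blastocysts. The study describes its controls as littermates of the mutants. These sources do not settle whether the groups share a strain, and any such difference cannot be told apart from genotype.

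Library totals lay between 11036313 and 17869840 counts, and the mutant libraries were the shallower ones. A count of 3, taken as the floor, corresponded to between 0.170 and 0.272 CPM, the count divided by the TMM-normalized library size on a common scale, which covers counting error only. Sall1 had 113 and 96.0 CPM in the mutant libraries against 16.2 and 12.6 CPM in the wild-type libraries, as the labels state, and Wt1 had between 292 and 341 CPM in all 4. Wild-type replicate 1 stood apart in 6 skeletal muscle genes, with a summed level of 217 CPM against 8.78 CPM in wild-type replicate 2. Mutant replicates 1 and 2 had 33.7 and 5.18 CPM, so replicate 1 had the higher sum in both groups. Nothing in the labels says that libraries of one group came from separate animals, so the spread between them may be technical, and for a single gene an exact permutation test of 2 against 2 cannot give a p below 0.333.

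The genes Gucy1a3 and Gucy1b3, whose products form the main soluble cyclase dimer, are neighbours on chromosome 3. On NCBIM37 (mm9, gene models of GENCODE M1), Gucy1b3 lies on the minus strand from 81835926 to 81878633 and Gucy1a3 on the same strand from 81896350 to 81949799, with 17716 bp between them. Gucy1a2, which encodes the other alpha subunit, lies on the plus strand of chromosome 9 from 3532354 to 3897342. As the subunit genes of one enzyme differed in how far they changed, the 250 bases upstream of a RefSeq start of each are shown 5′ to 3′ (RefSeq table, GRCm38.p6, another build than the counts). RefSeq lists Gucy1a3 as Gucy1a1 and Gucy1b3 as Gucy1b1, and gives Gucy1a3 2 starts, of which the upstream one is shown. Capitals mark the letters GGGCGG, the core of the GC box bound by Sp-family factors, or its reverse complement.
Gucy1a3, start 1, chr3:82145651-82145900, minus strand: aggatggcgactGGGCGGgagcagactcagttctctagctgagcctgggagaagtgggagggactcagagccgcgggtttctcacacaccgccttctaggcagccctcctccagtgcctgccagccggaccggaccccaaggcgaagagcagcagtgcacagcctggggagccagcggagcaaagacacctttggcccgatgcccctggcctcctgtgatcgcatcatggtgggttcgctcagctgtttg
Gucy1b3, chr3:82074712-82074961, minus strand: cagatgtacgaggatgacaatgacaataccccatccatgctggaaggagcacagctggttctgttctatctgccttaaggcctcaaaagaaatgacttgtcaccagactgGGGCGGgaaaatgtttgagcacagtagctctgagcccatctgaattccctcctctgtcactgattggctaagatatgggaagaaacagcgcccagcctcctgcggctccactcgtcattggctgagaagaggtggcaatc
Gucy1a2, chr9:3532099-3532348, plus strand: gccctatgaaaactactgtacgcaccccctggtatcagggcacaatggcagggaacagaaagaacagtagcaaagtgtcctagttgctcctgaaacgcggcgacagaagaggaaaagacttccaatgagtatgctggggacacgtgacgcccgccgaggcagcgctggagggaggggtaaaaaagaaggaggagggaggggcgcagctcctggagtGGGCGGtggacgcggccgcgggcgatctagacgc

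Each of the 3 subunit genes had 1 GGGCGG match in these windows, which in Gucy1a3 lay at the upstream start, the window of its other start holding none. The same letters occurred in 32.7% of all 32851 RefSeq windows of this length. Neither AATATT, an A/T-rich sequence of the kind bound by the C-terminal zinc fingers of Sall proteins, nor AAGGTCA, the core of the site of the gonadal receptor Nr5a1, occurred in the windows of these genes on either strand. Among the other genes of the set, Pde5a, Npr1, Nppc and both starts of Prkg1 held GGGCGG as well, and Npr2 and Npr3 did not. Over all windows AATATT was found in 6.17% and AAGGTCA in 4.08%, so that a window without them is the usual case, and the motifs do not overlap each other. The windows differed in base composition, with a G+C content of 64.0% and 61.2% at the starts of Gucy1a3, 59.6% at Gucy1a2 and 51.2% at Gucy1b3. Of the 10 genes 9 were found in the RefSeq table, and Prkg2 was not.

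To place the genes on a common scale, levels were compared per exonic length as RPKM, the CPM divided by the merged exon length in kilobases. The alpha subunit gene Gucy1a3 had the highest level in wild-type ovaries, with 38.0 and 40.0 RPKM in the 2 libraries. It was followed by Npr1, the receptor of atrial and B-type natriuretic peptides, with 25.0 and 28.2 RPKM. These genes did not overlap each other.
Gucy1b3, which encodes the beta subunit of the main soluble cyclase dimer, had 8.26 and 11.99 RPKM. Npr2, the receptor of C-type natriuretic peptide, had 8.06 and 10.8 RPKM. The levels of Gucy1b3 and Npr2 overlapped and their order was not resolved. Below them came Gucy1a2 at 5.51 and 5.84 RPKM and Pde5a, which hydrolyses cGMP, at 3.79 and 3.53 RPKM.
The clearance receptor Npr3, which binds the peptides but has no cyclase domain, had 1.99 and 2.30 RPKM. The kinase genes were low, with 1.52 and 1.38 RPKM for Prkg2 and 0.974 and 1.05 RPKM for Prkg1. The ligand gene Nppc was last, at 0.167 and 0.109 RPKM. From Gucy1a2 downwards no gene overlapped the next in the order.
In the mutant ovaries Npr1 was first with 22.9 and 25.5 RPKM and Gucy1a3 second with 19.3 and 16.5 RPKM, again without overlap. Npr2 came next, and Gucy1b3 and Gucy1a2 overlapped each other, as did Prkg2 and Npr3.

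**Figure D1:**
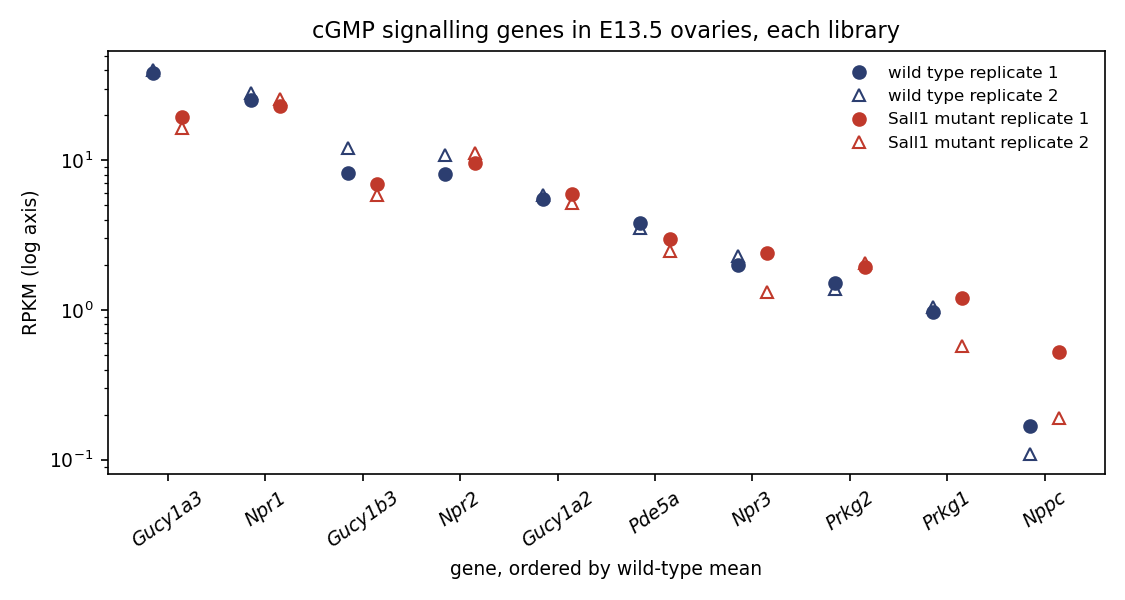
Level of each gene in each library, as RPKM on a log axis, with genes ordered from left to right by their wild-type mean. Blue marks wild-type and red Sall1 mutant ovaries, filled circles replicate 1 and open triangles replicate 2, and the points of Gucy1a3 lie at 38.0 and 40.0 RPKM in wild type against 19.3 and 16.5 RPKM in the mutants.

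The alpha subunit gene Gucy1a3 was lower in both mutant libraries. Its counts were 989 and 1156 in mutants and 3043 and 3287 in wild type, or 83.3 ± 9.12 CPM (SD, n = 2) against 182 ± 6.64 CPM (SD, n = 2). The gap between the groups was far wider than the spread within either of them. The fitted log2 fold change, mutant minus wild type, was -1.13 (standard error, SE, 0.11), a level 2.18 times higher in wild type than in mutant ovaries, and 1.28% of the 15442 genes tested had a log2 fold change as low or lower.
Of the 9 genes of the set that passed the filter on low counts, Gucy1a3 alone had an adjusted p under 0.05 in edgeR's quasi-likelihood test, in the direction of lower levels, in which 0.0453% of all genes were called. None of the 9 was called higher, where the share of all genes was 0.0130%, and in either direction 0.0583% were called. With DESeq2 the same gene alone was called, against 0.428% of genes called lower, 0.286% higher and 0.714% in either direction. Gucy1a3 entered the set through this contrast and nothing is read from its call, which was lost when wild-type replicate 1 or wild-type replicate 2 was left out, with log2 fold changes of -1.16 and -1.08.

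The beta subunit gene Gucy1b3 lay in the same direction with a smaller change and a wider spread. Its counts were 247 and 288 in mutants and 462 and 688 in wild type, or 20.8 ± 2.31 CPM against 32.9 ± 8.58 CPM (SD, n = 2 each). The groups did not overlap, but wild-type replicate 1, at 26.9 CPM, lay closer to mutant replicate 1 at 22.4 CPM than to wild-type replicate 2 at 39.0 CPM. The log2 fold change was -0.67 (SE 0.20) and depended on the wild-type libraries, with -0.91 without wild-type replicate 1 and -0.36 without wild-type replicate 2. With the replicate number added as a block, Gucy1a3 and Gucy1b3 were called lower and none higher, where 1.33% of all genes were called lower, 1.17% higher and 2.49% in either direction.
The second alpha subunit gene, Gucy1a2, stayed level. Its level was 31.2 and 27.3 CPM in mutants and 29.1 and 30.8 CPM in wild type, which overlap, and a log2 fold change of -0.04 (SE 0.13) whose sign turned without mutant replicate 2 or wild-type replicate 2, at 0.06 and 0.01.
The ratio of the alpha subunit genes therefore differed between genotypes and hardly within them. Because Gucy1a3 entered the set through its fall, this ratio, its share and the summed alpha level restate that fall. Per exonic length, Gucy1a3 exceeded Gucy1a2 3.26 and 3.20 times in mutant and 6.90 and 6.86 times in wild-type ovaries. In both genotypes Gucy1a3 remained the main alpha subunit gene, with 76.6% and 76.2% of the summed alpha RPKM in mutant and 87.3% and 87.3% in wild-type ovaries. The summed alpha RPKM was 25.2 and 21.7 in mutants and 43.5 and 45.9 in wild type.
Alpha subunit RNA exceeded beta subunit RNA in all 4 libraries. The ratio of summed alpha to Gucy1b3 was 3.66 and 3.68 in the mutants against 5.27 and 3.83 in wild type, where the replicates differed more from each other than the second of them did from the mutants. Gucy1a3 against Gucy1b3 gave 2.80 in both mutant libraries and 4.60 and 3.34 in wild type, while Gucy1a2 against Gucy1b3 gave 0.857 and 0.876 in mutants and 0.667 and 0.487 in wild type.

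**Figure D2:**
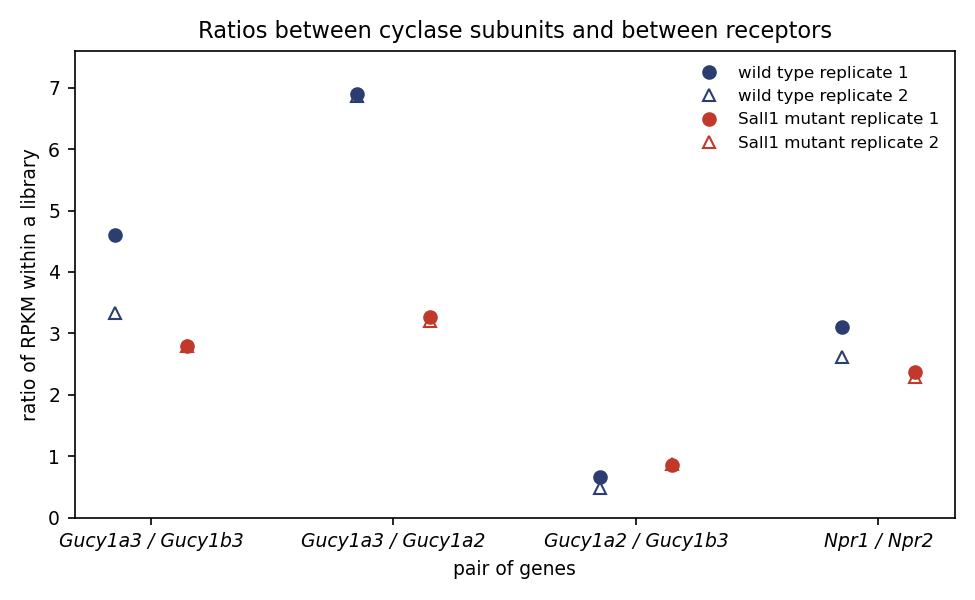
Ratios of RPKM between pairs of genes within each library, on a linear axis from 0, for the soluble cyclase subunits and for the receptors Npr1 and Npr2. Colours mark the genotype and symbols the replicate number, and the ratio of Gucy1a3 to Gucy1a2 is 3.26 and 3.20 in the mutants against 6.90 and 6.86 in wild type.

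Among the natriuretic peptide receptors, none differed between the genotypes beyond the spread of its libraries. Npr1 had 1208 and 1838 counts in mutants and 2061 and 2378 in wild type, or 109.6 and 122.2 CPM against 119.8 and 134.7 CPM, with a log2 fold change of -0.13 (SE 0.11). Npr2 had 496 and 784 counts against 647 and 887, or 45.0 and 52.1 CPM against 37.6 and 50.3 CPM, with a log2 fold change of 0.15 (SE 0.16). The groups overlapped in both genes, and the fitted change of Npr2 turned to -0.05 without wild-type replicate 1.
Part of the exons of Npr1 and Npr2 is shared with a gene on the opposite strand, 11.7% and 5.70% of their exonic bases, and these counts are less certain because the handling of strands in the counting is not given in the sources used here.
Within each library Npr1 exceeded Npr2 per exonic length, 2.38 and 2.29 times in the mutants and 3.11 and 2.62 times in wild type. These ratios did not overlap between the groups, although each of the genes taken alone did. The wild-type replicates differed more from each other than wild-type replicate 2 did from mutant replicate 1. Separation is common at this size, as 15.1% of all genes were separated as lower and 15.8% as higher.
The clearance receptor Npr3 had 188 and 140 counts in mutants and 242 and 287 in wild type. Mutant replicate 1, at 17.1 CPM, lay above both wild-type libraries at 14.1 and 16.3 CPM, and mutant replicate 2, at 9.31 CPM, below them. The log2 fold change of -0.21 (SE 0.28) turned to 0.17 without mutant replicate 2.
The ligand gene Nppc had 6 and 3 counts in mutants and 3 and 2 in wild type and did not pass the filter on low counts. All but mutant replicate 1 lay at or below the floor of 3 counts. The summed counts of 9 and 5 gave a ratio of mutant to wild type of 2.41 with a 95% exact interval, for counting error only, from 0.724 to 9.14, so that a difference was not detectable at this depth.

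Of the kinases and the phosphodiesterase, Pde5a was lower and Prkg2 higher in both mutant libraries, each by less than Gucy1a3. Pde5a had 292 and 332 counts in mutants and 577 and 552 in wild type, or 26.5 and 22.1 CPM against 33.5 and 31.3 CPM, with a log2 fold change of -0.42 (SE 0.14). Prkg2, the membrane-anchored cGMP-dependent kinase, had 114 and 165 counts against 140 and 131, or 10.3 and 11.0 CPM against 8.14 and 7.42 CPM, with a log2 fold change of 0.45 (SE 0.19). The groups did not overlap in either gene, and both signs held with each library left out, from -0.56 to -0.29 for Pde5a and from 0.40 to 0.52 for Prkg2. Of all genes tested, 15.1% were separated in the direction of lower and 15.8% in the direction of higher levels, and of the 9 genes of the set 3 and 1 were.
Prkg1, the main kinase of cGMP in smooth muscle, rested on few counts, 31 and 20 in mutants and 39 and 43 in wild type. Mutant replicate 1 lay above and mutant replicate 2 below both wild-type libraries. The ratio of summed counts was 0.832 with a 95% exact interval, for counting error only, from 0.575 to 1.19. The count table also holds a row Prkg1b, a RefSeq synonym of the same gene, which was at 0 in all 4 libraries, and reads that fall on both rows may have been left out, so the low level of Prkg1 is uncertain. Its annotated exonic length of 2327 bp, on which its RPKM rests, was the second shortest of the set.
Across the 9 genes tested the median log2 fold change was -0.21, against -0.00088 over all genes. Below 0 lay 7 of them, as did 50.2% of all genes. The set was chosen with these changes in view, so the values describe it and show no shift of the pathway. The median was the value of Prkg1, whose log2 fold change turned to 0.26 without mutant replicate 2.

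**Figure D3:**
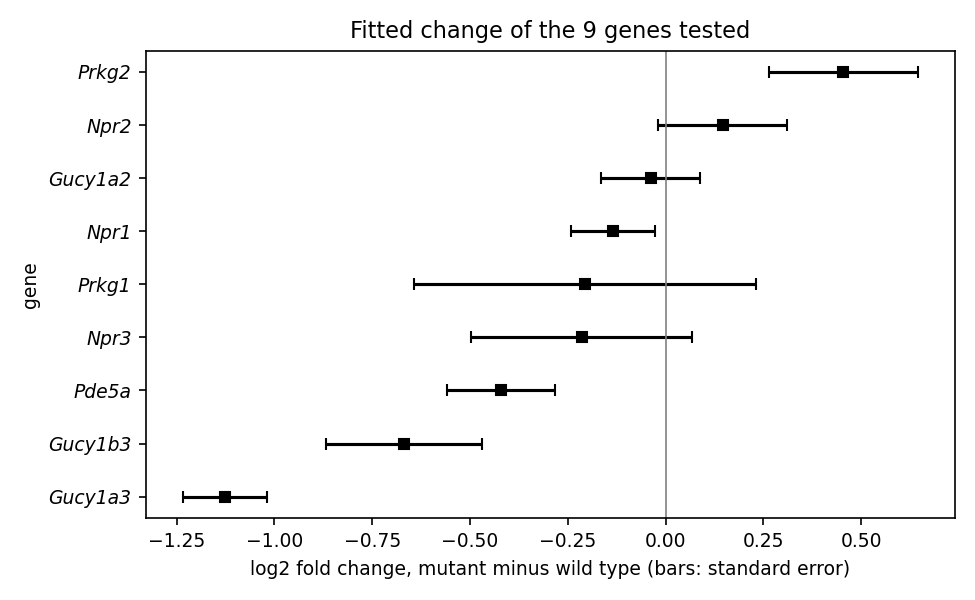
Fitted log2 fold change of the 9 genes tested, mutant minus wild type, with bars for the standard error and a line at 0. Gucy1a3 lies at -1.13, Gucy1b3 at -0.67 and Pde5a at -0.42, Prkg2 lies at 0.45, and the other 5 genes lie between -0.21 and 0.15.

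Of the genes next to the Gucy1a3 and Gucy1b3 pair, only Ctso and Rbm46 passed the filter on low counts. Neither gave a matching change. Of the 3 nearest protein-coding genes on each side, Accn5, Tdo2 and Mtap9 were listed at 0 in all libraries and Npy2r had between 1 and 9 counts. Ctso, a cathepsin gene 75279 bp from the pair, had 15.8 and 14.9 CPM in mutants and 12.8 and 11.9 CPM in wild type, with a log2 fold change of 0.31 (SE 0.16, edgeR adjusted p = 1.00). Rbm46, a germ cell RNA-binding protein gene 691356 bp away, had a log2 fold change of -0.08 (SE 0.15, edgeR adjusted p = 1.00) and overlapping groups. Mtap9 is also listed as Map9, again at 0, so its zeros do not show that the gene is silent.

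A bulk level cannot separate fewer cells of a type from less RNA per cell, and the soluble cyclase and Pde5a are known from vascular smooth muscle, pericytes and interstitial cells. Marker lists of the cell types that the dissection could hold were therefore read beside the changes. Interstitial markers were lower, with 8 of 9 genes separated in that direction and a summed level of 554 and 402 CPM in the mutant against 687 and 660 CPM in the wild-type libraries. Of these, 0 genes were called by edgeR's test, where 0.0583% of all genes were called in either direction. DESeq2 called 3 of them lower, Pdgfra, Tcf21 and Lum, where 0.428% of all genes were called lower.
Pericyte and smooth muscle markers summed to 362 and 309 CPM against 396 and 383 CPM, with 3 of 11 tested genes separated as lower. Endothelial markers summed to 522 and 495 CPM against 540 and 569 CPM, with 3 of 10 separated as lower. Both shares lay nearer to the 15.1% of all genes than that of the interstitial list did, and 0 markers of these 3 lists were at 0 in any library.
Pre-granulosa markers summed to 713 and 691 CPM in the mutants against 637 and 673 CPM. Of the 7 tested genes 3 were separated as higher and 0 as lower, beside 15.8% and 15.1% of all genes. The median log2 fold change of this list was 0.04. Both edgeR and DESeq2 called 0 of its genes, where 0.0583% and 0.714% of all genes were called in either direction. The sums of the germ cell, mesonephric, blood and skeletal muscle lists overlapped between the groups. Most of the mesonephric sum was Emx2, at 138 and 141 CPM in mutants against 129 and 152 CPM in wild type. It therefore says little about the other genes of that list. Of the 7 tested mesonephric genes 1, Pax8, was separated as higher and 1, Ret, as lower. The Leydig sum was lower in the mutants, at 39.3 and 45.3 CPM against 47.3 and 57.1 CPM. Of its 4 tested genes 2 were separated as lower and 1 as higher, with a median log2 fold change of -0.065. The Sertoli sum was higher in the mutants, at 13.2 and 14.2 CPM against 9.07 and 10.7 CPM. Of its 5 tested genes 2 were separated as higher and 0 as lower, so neither sum stands for its whole list. In the Leydig and Sertoli lists 0 genes were called by edgeR or DESeq2.
Gucy1a3 entered the set through its fall, so its percent of any marker sum that fell less, or rose, had to be lower. Gucy1a3 was lower also in relation to the interstitial, pericyte and endothelial sums, which adds nothing to its fall. Expressed as a percent of the interstitial sum, a scale chosen after the data had been seen, it was 16.2% and 19.1% in the mutant against 25.7% and 28.2% in the wild-type libraries. Against the pericyte and smooth muscle sum it was 24.8% and 24.9% compared with 44.7% and 48.7%. Against the endothelial sum it was 17.2% and 15.5% compared with 32.8% and 32.7%. The same held against the pre-granulosa sum, at 12.6% and 11.1% compared with 27.8% and 27.7%. Against the germ cell sum it was 5.73% and 4.25% compared with 10.5% and 10.7%. Against the blood and skeletal muscle sums, which varied widely within each genotype, the groups overlapped, with 2.82% and 8.84% against 5.07% and 11.1% for blood. The part of the cell types in these differences was not tested beyond these values.

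To ask how the rest of the pathway behaved, 66 further genes were taken from lists of textbook roles, of which 45 passed the filter on low counts. With edgeR and p-values adjusted over all genes (Benjamini-Hochberg), 1 of the 45, Rgs2, passed as lower and 0 as higher, where 0.0453% and 0.0130% of all genes did. At an unadjusted p under 0.05 there were 9 of the 45, beside 878 of the 15442 genes tested. DESeq2 called Rgs2 and Mme lower and Nos1 higher, where 0.428% of all genes were called lower and 0.286% higher. The median log2 fold change of the 45 genes was 0.01, and 10 genes were separated as lower and 8 as higher, beside 15.1% and 15.8% of all genes.

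Among the substrates and partners of the kinase, Rgs2, a regulator of G-protein signalling that cGMP-dependent kinase phosphorylates, fell. Its counts were 215 and 295 in mutants and 1322 and 1608 in wild type, and the log2 fold change was -2.10 (SE 0.13, edgeR adjusted p = 0.00823), with adjusted p from 6.82e-29 to 0.0115 over the alternatives. This fall was known when the list was written and is not independent support for the list.
The cation channel gene Trpc6 had 39 and 61 counts against 125 and 140, and Mrvi1, which encodes the kinase partner IRAG, had 214 and 280 against 435 and 428. Both were separated as lower, with log2 fold changes of -0.996 (SE 0.24, edgeR adjusted p = 0.425) and -0.38 (SE 0.13, edgeR adjusted p = 0.708), and did not pass. Of the 10 tested genes of this list, Rgs2 included, 5 were separated as lower and 1 as higher. Of all genes 15.1% and 15.8% were. With the replicate block Trpc6 passed, at -0.999 (SE 0.24, edgeR adjusted p = 0.0360), and its adjusted p ran from 0.0360 to 1.00 over the alternatives. Trpc6 and Mrvi1 were chosen for naming after their values had been seen. Gtf2i, the most abundant gene of this list at 51.8 RPKM in wild type, had a log2 fold change of 0.02 (SE 0.08).

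In the supply of nitric oxide, the ligand of the soluble cyclase, no gene passed in edgeR's test. Nos1, the neuronal nitric oxide synthase, had 331 and 390 counts in mutants and 256 and 286 in the deeper wild-type libraries, with a log2 fold change of 0.85 (SE 0.14). Its adjusted p was 0.181 with edgeR and 0.0285 with DESeq2, and from 0.00263 to 0.759 over the alternatives. Nos2 was separated as higher as well, on 24 and 44 counts against 27 and 30, and the endothelial synthase Nos3 overlapped between the groups, with a log2 fold change of -0.03 (SE 0.24).
Nostrin, which directs the traffic of the endothelial synthase, had the widest separated change of this list at 1.22 (SE 0.46, edgeR adjusted p = 0.817), on between 14 and 28 counts. Hsp90aa1, a chaperone of the synthases and cyclase and the most abundant gene of the list at 761 RPKM, had a log2 fold change of 0.0038 (SE 0.09).

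Of the 6 genes for peptides and their processing 3 were tested, and none passed in edgeR's test. Mme encodes neprilysin, the membrane protease that degrades natriuretic peptides. Its counts were 554 and 531 in mutants and 1616 and 1314 in wild type, with a log2 fold change of -0.98 (SE 0.19). Its adjusted p was 0.266 with edgeR and 0.000235 with DESeq2, and from 1.24e-06 to 0.710 over the alternatives. The peptide genes Nppa and Nppb had at most 3 counts in any library, as Nppc had at most 6. Ece1, the most abundant gene of this list at 30.2 RPKM, had a log2 fold change of 0.07 (SE 0.09).

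The other routes of cGMP gave no call. Of 17 phosphodiesterase and exporter genes 12 were tested, with log2 fold changes from -0.40 to 0.21 and a median of 0.02. Pde3a was the widest of the separated genes, with 128 and 175 counts against 247 and 289 and a log2 fold change of -0.40 (SE 0.16, edgeR adjusted p = 0.857). The cone subunit gene Pde6h was at 0 in all libraries. Pde6d, whose product also carries prenylated proteins, was the most abundant at 20.8 RPKM and had a log2 fold change of 0.02 (SE 0.16).
The remaining cyclases and their activators were low. Of 10 genes 4 were tested, Gucy2f, Gucy2g, Guca1a and Guca1b, with between 2 and 28 counts in any library, and the groups overlapped in each. The membrane cyclase genes Gucy2c and Gucy2d and the second beta subunit gene Gucy1b2 had at most 5 counts in any library, and the guanylin genes Guca2a and Guca2b were listed at 0 in all 4. The most abundant of this list was Guca1a at 0.825 RPKM, with a log2 fold change of -0.56 (SE 0.80). Of the 6 cyclic nucleotide channel genes 1, Cnga1, was tested, at 0.120 RPKM in wild type, and Cngb3 was at 0 throughout.

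**Figure D4:**
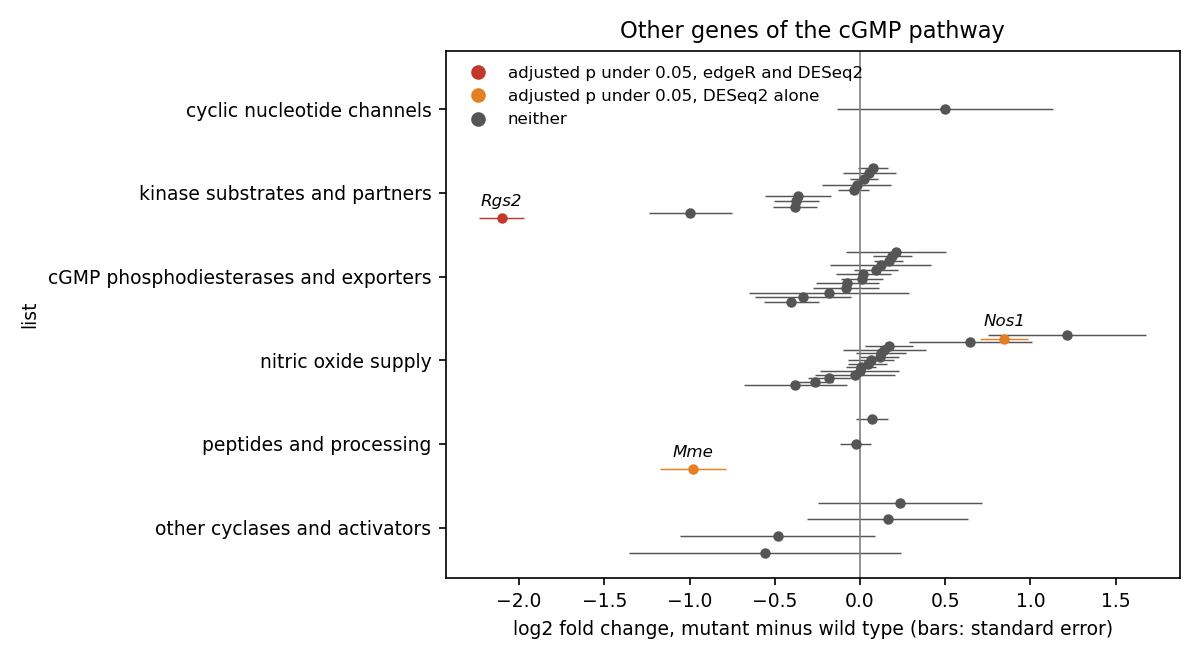
Fitted log2 fold change of the 45 tested pathway genes outside the set, mutant minus wild type, by list, with bars for the standard error. Red marks Rgs2 at -2.10, which passed with edgeR and DESeq2, orange marks Mme at -0.98 and Nos1 at 0.85, which passed with DESeq2 alone, and grey marks genes that passed with neither.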

How the data were processed

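RNA was measured in 4 libraries of E13.5 mouse ovaries, 2 mutant and 2 wild-type. The authors aligned reads with STAR 2.6.1d (build mm9, both per the submitters' processing notes) and counted them per gene symbol with summarizeOverlaps; the deposited values are these counts, neither normalized nor pooled. The annotation and the handling of strands and of reads on several genes are not given in the sources used here. All 4 columns were matched to libraries by genotype and replicate number, and 0 were unused. Depth is between 11036313 and 17869840 counts per library.

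Counts were analysed in R 4.3.3 with edgeR 4.0.16 (TMM, filterByExpr leaving 15442 genes, quasi-likelihood test, Benjamini-Hochberg adjustment over all genes, threshold 0.05), with genotype as the only factor. DESeq2 1.42.0 with default settings, as the authors used, was the main alternative. The SE of a change is its size divided by the square root of the F statistic. RPKM used merged exons of GENCODE M1 on NCBIM37, which may differ from the annotation used for counting. The code was tested on simulated data.

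The members and lists were chosen with earlier results of these data known. Named by rule were all members, Sall1 and Wt1, the neighbours of the Gucy1a3 and Gucy1b3 pair, and in each pathway list the called genes, the gene with the highest wild-type RPKM, the separated gene with the widest change and genes at 0; Gucy1b2, Gucy2c, Gucy2d, Nppa, Nppb, Nos2, Nos3, Gucy2f, Gucy2g, Guca1b, Trpc6, Mrvi1 and the called interstitial markers were named after their values were seen. Alternatives were other normalizations and filters, the replicate block, leaving out each library, and RPKM over the longest transcript. DESeq2 with the replicate block and the percent of marker sums were added after the data were seen. The markers Emx2, Pax8 and Ret were also named after their values were seen.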

Additional observations from a re-analysis of the deposited data

How the results depend on the processing

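With 2 libraries in each group the tests rest on a spread shared across genes, and genes near 0, such as Nppc, could not be compared at this depth. The number of genes called over the whole table, 9, became 105 with DESeq2, 118 with DESeq2 and the replicate block, 385 with the replicate block, 28 with no filter, 19 with at least 10 counts in every library, and 4 to 130 with each library left out (130 and 38 without mutant replicate 1 and 2, 7 and 4 without wild-type replicate 1 and 2), where the lone library is assumed to vary like the other group. The genes of the set called lower were 2, Gucy1a3 and Gucy1b3, with the replicate block and 0 to 1 with each library left out, being 0 without either wild-type library, in place of 1; the genes called higher were 0 under every setting. Of the other pathway genes, those called lower were 2 with DESeq2 and with DESeq2 and the replicate block, 3 with the replicate block (Mme, Rgs2 and Trpc6) and 1 to 2 with each library left out (2, Mme and Rgs2, without mutant replicate 1), in place of 1, and those called higher were 1, Nos1, with DESeq2 and with the replicate block, in place of 0. The cause of these changes was not tested.

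The labels do not say that a replicate number marks a shared litter, batch or day. The column names give same-numbered libraries consecutive library identifiers, and replicate 1 had the higher blood and skeletal muscle sums in both groups. The deviations of same-numbered libraries from the means of their groups correlated at 0.470 across genes. The replicate block gave -1.13 for Gucy1a3, -0.66 for Gucy1b3 and -0.42 for Pde5a, and among the genes of the set it added the call of Gucy1b3 and changed no other.

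The sign of Hsp90aa1 turned with DESeq2 (-0.00058), upper-quartile normalization (-0.0078) and no filter (-0.0046). With each library left out, log2 fold changes changed sign within -0.139 to 0.0569 for Gucy1a2, -0.82 to 0.26 for Prkg1, -0.71 to 0.17 for Npr3, -0.0468 to 0.382 for Npr2, -2.37 to 0.33 for Guca1a, -0.0412 to 0.0626 for Hsp90aa1, -0.14 to 0.20 for Pde6d, -0.0107 to 0.0545 for Gtf2i, -0.254 to 0.0744 for Rbm46 and -0.0839 to 0.138 for Wt1. Per longest transcript the ratio of Gucy1a3 to Gucy1b3 in wild type was 3.85, as over merged exons, while Npr2 and Gucy1b3 changed places at ranks 3 and 4.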

Other observations

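Rows that carry 2 symbols of the same gene were common in the count table. Of 1228 protein-coding genes listed under 2 symbols by RefSeq synonyms, 198 (16.1%) had 0 counts in both rows, 537 had 0 counts in 1 row, and 493 had counts in both. Prkg1 with Prkg1b was the only gene of the set of 10 with such a second row, and among the other pathway genes Gtf2i had a second row with 18 counts in all libraries together and Kcnma1 one with 2. The stem cell factor gene Kitl, fixed as a pre-granulosa marker, had between 2 and 4 counts in the 4 libraries while the other 7 pre-granulosa markers passed the filter on low counts. Second rows were not looked up for the marker genes. The low counts of Kitl therefore show neither that reads were lost nor that the gene is near silent.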
